A study of Mus musculus with 18 samples.

Results

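The secreted and membrane genes at the outer end of Wnt signalling were examined in mouse lung under normoxia and chronic hypoxia. Members were taken by name from the deposited gene table: every gene named as a Wnt ligand (Wnt), a Frizzled receptor (Fzd), a secreted Frizzled-related protein (Sfrp), a Dickkopf (Dkk) or an R-spondin (Rspo). The rule found 41 of 23356 features, namely 19 Wnt, 10 Fzd, 4 Sfrp, 4 Dkk and 4 Rspo genes. Poly(A) RNA of whole lung from male C57BL/6 mice was sequenced in 18 libraries, 3 in each of 6 groups. The genotypes were wild type, β-arrestin 1 -/- and mice labelled β-arrestin 2 -/-, β-arrestins being adaptor proteins of activated receptors. Mice entered at 8 to 12 weeks of age, were exposed for 4 weeks and are labelled 12 to 16 weeks old. Normoxia was normal altitude, with a labelled PAO2 of about 150 mmHg, and hypoxia the pressure of 18000 feet, with a PAO2 of about 70 mmHg. Every group was of the same sex, strain and labelled age. The labels do not give the kind of knockout allele, nor whether different libraries are different animals. The p-values therefore reflect variation among libraries, which may be technical.

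Wnts are lipid-modified secreted proteins that bind a Frizzled on the receiving cell. With the co-receptors Lrp5 and Lrp6 they stabilise β-catenin, which with TCF and LEF factors switches on target genes, and by other routes they orient cells in a plane. Sfrps bind Wnts outside the cell, Dkk1, Dkk2 and Dkk4 block Lrp5 and Lrp6, and R-spondins raise Frizzled levels through the Lgr receptors by holding back the ligases Rnf43 and Znrf3. In mouse lung, Wnt2 and Wnt2b are known from the mesenchyme that specifies the lung bud, and Wnt7b from the embryonic epithelium.

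The promoters of 3 members are printed because these genes had the largest called response to hypoxia in one genotype each: Wnt2b in wild type, Wnt7a in β-arrestin 1 -/- and Sfrp2 in the libraries labelled β-arrestin 2 -/-. Each run reads 5′ to 3′ on the gene's strand from 250 bases before to 50 after the RefSeq start (GRCm38.p6, the assembly of mm10). Capitals mark the core letters of a hypoxia response element, ACGTG or GCGTG, on either strand. The windows are Sfrp2 at chr3:83766071-83766370 (plus strand), Wnt2b at chr3:104961660-104961959 (minus strand) and Wnt7a at chr6:91411304-91411603 (minus strand).
Sfrp2: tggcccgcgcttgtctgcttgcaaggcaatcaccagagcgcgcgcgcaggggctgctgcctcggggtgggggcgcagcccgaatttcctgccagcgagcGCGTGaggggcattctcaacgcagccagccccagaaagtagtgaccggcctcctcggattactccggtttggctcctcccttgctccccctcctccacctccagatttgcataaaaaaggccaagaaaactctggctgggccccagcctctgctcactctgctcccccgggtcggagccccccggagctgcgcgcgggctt
Wnt2b: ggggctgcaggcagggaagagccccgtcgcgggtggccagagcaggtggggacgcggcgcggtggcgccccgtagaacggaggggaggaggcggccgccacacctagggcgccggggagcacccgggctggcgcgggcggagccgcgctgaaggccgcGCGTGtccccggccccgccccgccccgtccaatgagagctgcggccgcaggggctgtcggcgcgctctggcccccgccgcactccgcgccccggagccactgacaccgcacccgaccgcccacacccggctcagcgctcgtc
Wnt7a: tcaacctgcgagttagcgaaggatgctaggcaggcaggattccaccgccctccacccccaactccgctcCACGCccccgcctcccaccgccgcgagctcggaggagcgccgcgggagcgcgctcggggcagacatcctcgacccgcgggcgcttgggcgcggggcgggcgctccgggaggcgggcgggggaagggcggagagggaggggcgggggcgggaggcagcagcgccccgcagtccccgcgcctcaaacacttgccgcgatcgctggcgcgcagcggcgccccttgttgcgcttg
Each of the 3 windows held a single such match and was rich in G and C, at 66.0% for Sfrp2, 79.7% for Wnt2b and 76.0% for Wnt7a. Promoter entries existed for 27 of the 41 members, with 30 promoters in all. Of those 30, 18 (60.0%) held ACGTG or GCGTG, against 43.8% of all 32851 promoters of the same length. The letters CTTTGA, a TCF and LEF motif, were in 4 of 30 (13.3%) against 16.0% of all promoters, and in none of the 3 windows printed. A match is a description of letters and was not tested as a site.

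Library totals ran from 16806806 to 25980876 estimated fragments, and 16817 to 17403 genes had at least 1 fragment. Of all features, 15388 passed the filter on low counts. Arrb1, the gene of β-arrestin 1, was at 83.7 to 117.5 CPM (fragments scaled to a common library size) in the β-arrestin 1 -/- libraries and at 302 to 478 in wild type. It was at 262 to 319 CPM in labelled β-arrestin 2 -/- normoxia, below the 464 to 478 of wild type normoxia (-0.70 ± 0.12, adjusted p = 0.00435), and at 359 to 370 in their hypoxia. Arrb2 ran from 30.7 to 46.5 CPM in the libraries labelled β-arrestin 2 -/- and from 30.2 to 43.3 in wild type, with no loss of the gene's fragments, so the label alone names these libraries. Gene totals do not tell whether part of the transcript was missing. Lung markers were present throughout, with the summed alveolar type 1 list at 7293 to 11700 CPM and the endothelial list at 4886 to 7470. Replicate 0 of labelled β-arrestin 2 -/- normoxia stood apart, with cardiac muscle markers summing to 6448 CPM against 73.5 to 2965 elsewhere and airway markers to 9807 against 3651 to 7394. Replicate 2 of β-arrestin 1 -/- hypoxia had the lowest total and the highest Arrb2, 73.1 CPM. Where a call on a member was lost without either library, this is given beside it.

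Per length, in FPKM (fragments scaled by gene length and depth), the most abundant member in wild type normoxia was Dkk3, a divergent Dickkopf that does not share the block of Lrp5 and Lrp6, at 50.1 ± 3.17 FPKM (SD, n = 3). Fzd4, a receptor for Wnts and for norrin, was next at 26.7 ± 3.41. Fzd7 (16.9 ± 1.38), Fzd1 (16.8 ± 0.99), Rspo1 (16.1 ± 5.54) and Fzd6 (15.7 ± 1.31) followed within one another's spread. By summed FPKM, the Frizzleds (104.3 ± 5.60) stood well above the 19 Wnts (49.1 ± 3.18), the Sfrps (18.9 ± 4.30) and the R-spondins (17.8 ± 5.48). Of the Dickkopf sum of 50.3 ± 3.17 nearly all was Dkk3.

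No single Wnt dominated. Wnt3a (7.76 ± 0.71 FPKM) and Wnt2 (6.85 ± 0.86) were the highest, within each other's spread, and 7 further Wnts from Wnt7a (5.85 ± 0.36) down to Wnt4 (2.63 ± 0.78) lay close below, with Wnt7b at 1.88 ± 0.11 and Wnt5b at 1.79 ± 0.24. A mean of at least 1 FPKM was reached by 24 of the 41 members: 11 Wnts, 8 Frizzleds, 2 Sfrps, Dkk3 and 2 R-spondins. Sfrp1 (10.7 ± 2.64) and Sfrp2 (7.76 ± 1.67) were the abundant Sfrps, Sfrp5 (0.21 ± 0.11) the lowest. The lowest R-spondin was Rspo2 at 0.13 ± 0.04, and the lowest Frizzled was Fzd9 at 0.07 ± 0.03.

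Counts allowed a test of 32 members. The other 9, Wnt1, Wnt3, Wnt8a, Wnt8b, Wnt10a, Wnt16, Fzd9, Dkk1 and Dkk4, were under the filter, with 2 to 78 fragments over all 18 libraries. Dkk1, the best known Wnt antagonist, had 6 fragments in 6 libraries, and Dkk4 had 2 fragments, both in 1 library. Some Wnts lie in neighbouring pairs. Wnt1 (9 fragments in all) lies 11.7 kb from Wnt10b (4042 fragments) on chromosome 15, and Wnt10a (18 fragments) lies 6.7 kb from Wnt6 (212 fragments), itself low at 0.23 ± 0.06 FPKM, on chromosome 1. Wnt9b (109 fragments) and Wnt3 (38 fragments), 24.4 kb apart on chromosome 11, were both low. In the pair Wnt3a and Wnt9a on chromosome 11, 16.2 kb apart, both were expressed, with 9211 and 7190 fragments.

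**Figure D1:**
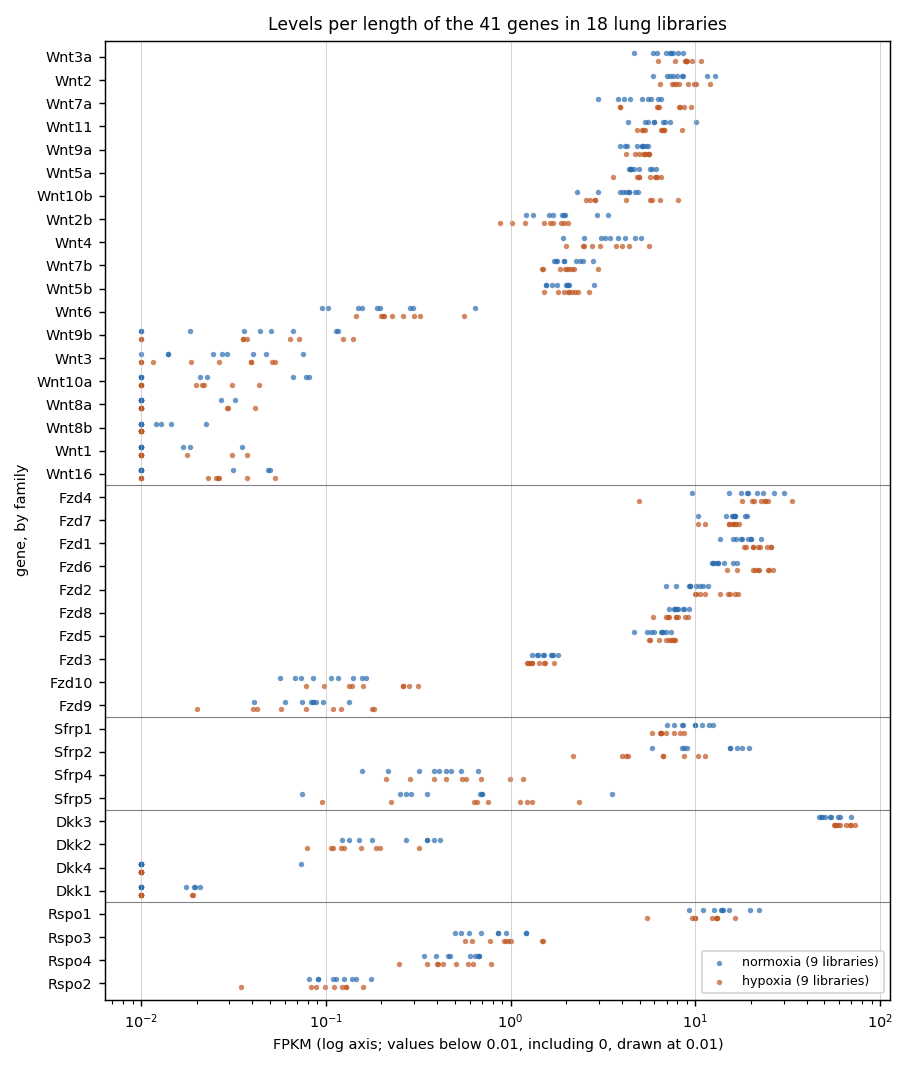
FPKM on a log axis (values below 0.01 drawn at 0.01) of the 41 genes, ordered within each family by the mean in wild type normoxia; each point is 1 of 18 libraries, blue for normoxia and orange for hypoxia, with families parted by grey lines. Dkk3 lies between 46.6 and 72.8 FPKM in every library, 11 Wnts form a band of similar level, and 9 of the genes near the left edge were too low to test.

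In wild type lung with hypoxia Fzd1 was called higher, and the antagonist Sfrp1 and the ligand Wnt2b lower. Thus 3 of 32 members were called at an adjusted p below 0.05 (1 higher and 2 lower), beside 4.76% of all genes tested (2.85% higher and 1.92% lower). Each of these calls was lost in at least 4 of 6 fits that left out a library. The median log2 change of the members was 0.15, beside 0.00 over all genes. The 2 groups did not overlap for 11 of 32 members, beside 24.7% of all genes. An unadjusted p below 0.05 was found for 10 members, and the share of all genes at that level is not given here.

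In β-arrestin 1 -/- lung the ligand Wnt7a and the receptors Fzd2 and Fzd6 were called higher and no member was called lower, 3 of 32 called beside 2.95% of all genes (1.84% higher and 1.11% lower). The median of the members was 0.04 and that of all genes 0.02, and groups did not overlap for 7 members beside 21.2% of genes. In the libraries labelled β-arrestin 2 -/- the antagonists Sfrp2 and Sfrp1, the potentiator Rspo1 and the ligand Wnt7b fell and Fzd6 rose, 5 of 32 called beside 21.9% of all genes (11.1% higher and 10.8% lower). The median was 0.10 for the members and -0.04 for all genes, and 8 members beside 47.9% of genes had groups that did not overlap. The members' shares of calls were thus 9.4%, 9.4% and 15.6% in wild type, β-arrestin 1 -/- and labelled β-arrestin 2 -/- lung, beside 4.76%, 2.95% and 21.9% of all genes. These differences in share were not tested.

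**Figure D2:**
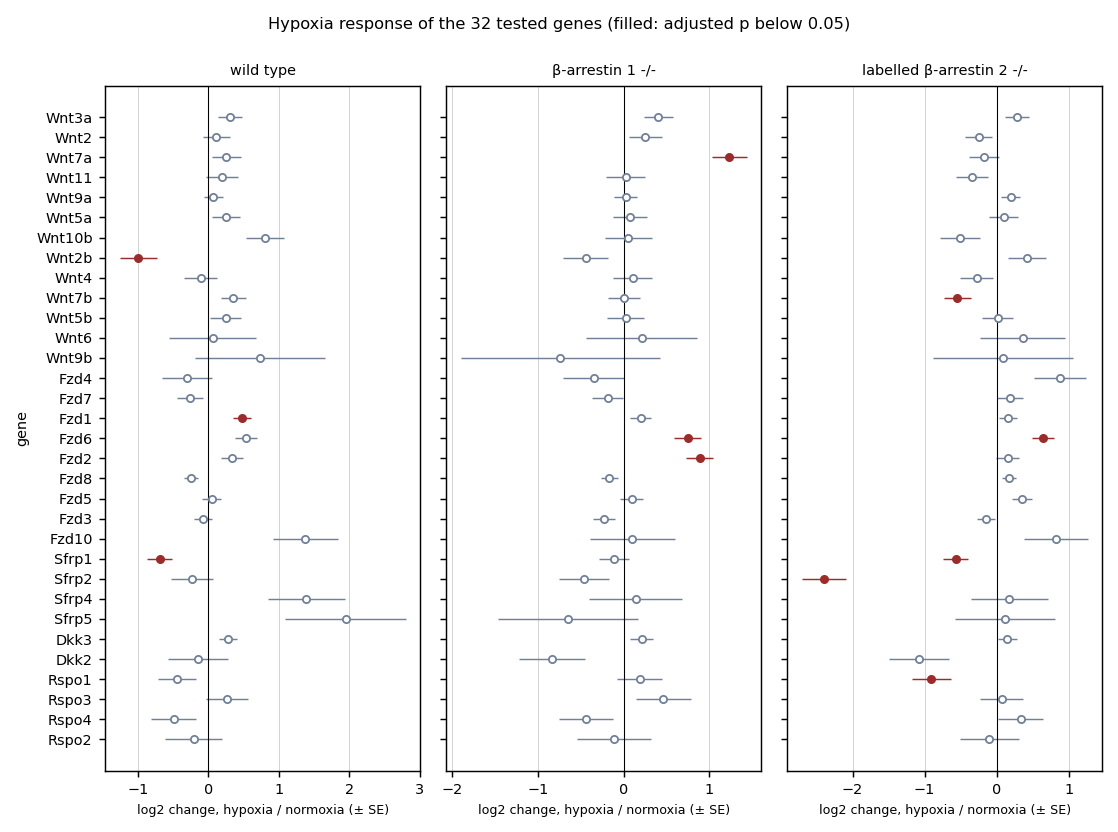
The log2 change from normoxia to hypoxia with its SE for the 32 tested genes in each genotype, filled where the adjusted p was below 0.05. Fzd6 lies between 0.53 and 0.75 in all 3 panels, while Sfrp2 reaches -2.40 in the panel of the libraries labelled β-arrestin 2 -/- and is not filled in the others.

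Among the ligands, Wnt7a (chromosome 6, 91363983 to 91411369, mm10), whose promoter is printed above, had the largest called rise. In β-arrestin 1 -/- it stood at 9.94, 12.9 and 14.9 CPM in normoxia and at 27.4, 29.2 and 32.2 in hypoxia. All 3 hypoxic libraries were above all normoxic ones, and above every other library but wild type hypoxia replicate 1, which had 27.9. The log2 change was 1.23 ± 0.21 (SE, adjusted p = 0.00548), and it passed in all 6 fits that left out a library. Wild type had 18.6, 21.0 and 19.3 CPM in normoxia and 21.5, 27.9 and 21.0 in hypoxia, a change of 0.25 ± 0.20 (adjusted p = 0.564). The normoxic β-arrestin 1 -/- libraries lay below the wild type ones without overlap, by -0.65 ± 0.21, which was not called (adjusted p = 0.296). The difference between the 2 responses, 0.98 ± 0.29, was not called either (adjusted p = 0.807).

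Wnt2b (chromosome 3, 104944805 to 104961709) fell in wild type from 7.20, 12.8 and 11.2 CPM to 4.56, 7.15 and 3.90. The lowest normoxic and the highest hypoxic library nearly touched. The change was -0.999 ± 0.26 (adjusted p = 0.0406), and it was lost without normoxia replicate 1 or 2 or hypoxia replicate 0 or 2, the adjusted p running from 0.0206 to 0.191 over the 6 fits. It was also lost under 3 of 8 other settings. The libraries labelled β-arrestin 2 -/- started lower, at 4.67, 5.10 and 6.46 CPM in normoxia, and had 6.46, 7.45 and 7.75 in hypoxia. Their normoxic level was below wild type by -0.94 ± 0.26 (adjusted p = 0.0371) with no overlap, and their own hypoxia response, 0.41 ± 0.26, was not called (adjusted p = 0.262). The responses of the 2 genotypes differed by 1.41 ± 0.37 (adjusted p = 0.0376). These 3 calls share libraries and are not independent. The normoxic difference was lost without wild type replicate 1 or 2 or labelled β-arrestin 2 -/- replicate 0 or 1 (adjusted p up to 0.145), and the difference of responses in 8 of 12 such fits (adjusted p 0.0256 to 0.0968). The latter was also lost under 1 of 8 other settings.

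Wnt7b (chromosome 15, 85535437 to 85593708) went the other way in those libraries. It fell from 10.2, 8.72 and 8.84 CPM to 7.02, 6.63 and 5.36, with no overlap, while wild type had 6.28, 7.03 and 6.94 in normoxia and 7.43, 7.75 and 10.7 in hypoxia. The fall of 0.55 on the log2 scale (-0.55 ± 0.18, adjusted p = 0.0421) was lost in every one of the 6 fits without a library (adjusted p 0.0665 to 0.15) and under 3 of 8 other settings. The difference from the wild type response was -0.90 ± 0.26 (adjusted p = 0.0499) and was lost in 11 of 12 such fits (adjusted p 0.0277 to 0.145) and under 6 of 8 other settings. An antisense gene of the deposited table, AU022754, shares 324 exon bases with Wnt7b and held 231 fragments over all libraries beside 3031 of Wnt7b, and the library kit does not keep strand.

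Wnt10b (chromosome 15, 98771752 to 98778150), a β-catenin ligand known for holding back fat cell formation, separated the genotypes in hypoxia. Wild type hypoxia had 13.3, 12.99 and 18.6 CPM and the hypoxic libraries labelled β-arrestin 2 -/- 6.11, 6.59 and 5.84, with no overlap. The log2 difference was -1.28 ± 0.28 (adjusted p = 0.0397), lost without wild type hypoxia replicate 1 or 2 or any one of the 3 labelled β-arrestin 2 -/- libraries (adjusted p up to 0.177). It was also lost under 3 of 8 other settings. Wild type normoxia had 9.22, 9.71 and 6.81 CPM, and its rise in hypoxia of 0.80 ± 0.27 was not called (adjusted p = 0.109). The difference of responses, -1.31 ± 0.39, was just outside the threshold (adjusted p = 0.0575). Without labelled β-arrestin 2 -/- normoxia replicate 0, the library that stood apart, it was -1.55 and passed (adjusted p = 0.0318).

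Wnt2 (chromosome 6, 17988940 to 18030445) was higher in normoxia in the libraries labelled β-arrestin 2 -/-, at 16.0, 25.2 and 27.6 CPM against 15.2, 12.8 and 16.4. Replicate 0 lay within the wild type range and the other 2 above it. The difference was 0.63 ± 0.19 (adjusted p = 0.0484). It was lost in 5 of 6 fits without a library, the exception being the fit without that replicate 0, where it was 0.83 (adjusted p = 0.0244), and under 7 of 8 other settings. The other 8 tested Wnts were called in none of the 9 contrasts. Their lowest adjusted p was that of Wnt11, at 0.53 ± 0.23 (adjusted p = 0.131) in labelled β-arrestin 2 -/- against wild type normoxia. Wnt6, low at 0.10 to 0.64 FPKM, passed for hypoxia in the labelled β-arrestin 2 -/- libraries only without normoxia replicate 0, at 1.78 (adjusted p = 0.0388). In β-arrestin 1 -/- against wild type Wnt4 had differences of 0.73 ± 0.23 in normoxia (adjusted p = 0.289) and 0.95 ± 0.23 in hypoxia (adjusted p = 0.152). Wnt5a, the main ligand of planar and calcium routes, had log2 changes with hypoxia of 0.24 ± 0.20, 0.08 ± 0.20 and 0.09 ± 0.20 in wild type, β-arrestin 1 -/- and labelled β-arrestin 2 -/- lung. With hypoxia Wnt11, its partner in those routes, had 0.19 ± 0.23, 0.02 ± 0.23 and -0.34 ± 0.23.

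Among the receptors, Fzd6 (chromosome 15, 39006280 to 39038190), known for hair and cell orientation through planar polarity, was higher in hypoxia in every genotype without overlap of the groups. Wild type had 73.8, 62.7 and 70.0 CPM in normoxia and 109.6, 92.5 and 97.0 in hypoxia. β-Arrestin 1 -/- had 56.7, 58.0 and 58.2 against 115.7, 108.1 and 66.2, and the labelled β-arrestin 2 -/- libraries 54.9, 55.4 and 54.9 against 94.9, 90.1 and 73.1. The lowest hypoxic value, 66.2, was from the library of lowest total. The log2 changes were 0.75 ± 0.16 in β-arrestin 1 -/- (adjusted p = 0.0167), 0.64 ± 0.16 in the labelled β-arrestin 2 -/- libraries (adjusted p = 0.00968) and 0.53 ± 0.15 in wild type, which was not called (adjusted p = 0.0592). No difference of responses was called, at 0.21 ± 0.22 (adjusted p = 0.865) for β-arrestin 1 -/- and 0.11 ± 0.22 (adjusted p = 0.766) for the labelled β-arrestin 2 -/- libraries against wild type. The call in the labelled β-arrestin 2 -/- libraries passed in all 6 fits without a library. That in β-arrestin 1 -/- passed only without hypoxia replicate 2, at 0.96 (adjusted p = 0.000369), and had an adjusted p of up to 0.0799 without any of the other 5. It was also lost under 2 of 8 other settings, including a fit of only the groups compared. An unlisted transcript model on the other strand, Gm26704, shares 152 exon bases with Fzd6.

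Fzd2 (chromosome 11, 102604431 to 102608058) rose in β-arrestin 1 -/- from 26.7, 35.8 and 36.4 CPM to 58.5, 59.6 and 64.7. The hypoxic libraries lay far above the normoxic ones and within the range of wild type hypoxia, which had 53.1, 65.9 and 41.4 beside 39.1, 42.8 and 45.1 in wild type normoxia. The change was 0.89 ± 0.16 (adjusted p = 0.00721) and passed in all 6 fits without a library. It was 0.34 ± 0.15 in wild type (adjusted p = 0.246) and 0.15 ± 0.16 in the labelled β-arrestin 2 -/- libraries (adjusted p = 0.504), and the difference of the β-arrestin 1 -/- response from wild type, 0.55 ± 0.22, was not called (adjusted p = 0.807). In a fit of only the 2 groups the Fzd2 and Wnt7a calls were lost, at adjusted p of 0.0677 and 0.0523.

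Fzd1 (chromosome 5, 4753839 to 4758216), a close relative of Fzd2 and Fzd7, rose in wild type from 78.1, 75.2 and 84.3 CPM to 121.9, 102.7 and 105.6. The groups did not overlap. The change was 0.47 ± 0.12 (adjusted p = 0.0396), and it was lost in every one of the 6 fits without a library (adjusted p 0.0631 to 0.185) and under 4 of 8 other settings. Fzd1 changed by 0.20 ± 0.12 (adjusted p = 0.406) in β-arrestin 1 -/- and 0.15 ± 0.12 (adjusted p = 0.384) in the labelled β-arrestin 2 -/- libraries. Fzd7 was called nowhere, with changes of -0.26 ± 0.18, -0.18 ± 0.18 and 0.18 ± 0.18 in the 3 genotypes.

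Fzd4, the most abundant Frizzled, was called in no contrast by edgeR and varied widely between libraries. It ranged from 91.2 to 118.2 CPM in wild type normoxia and from 80.2 to 93.7 in wild type hypoxia. β-Arrestin 1 -/- hypoxia had 89.2, 70.5 and 19.7, the last in the library of lowest total. The labelled β-arrestin 2 -/- libraries had 38.2, 60.4 and 76.2 in normoxia, the lowest in the replicate 0 that stood apart, and 131.5, 97.0 and 93.6 in hypoxia. Those last 2 groups did not overlap, and the change of 0.88 ± 0.36 was not called (adjusted p = 0.0884), being 0.66 (adjusted p = 0.274) without that replicate 0. The authors' deposited table called Fzd4 in 4 comparisons, given with the other calls of that table after the pathway. The remaining Frizzleds tested, Fzd3, Fzd5, Fzd8 and Fzd10, were also called in no contrast.

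**Figure D3:**
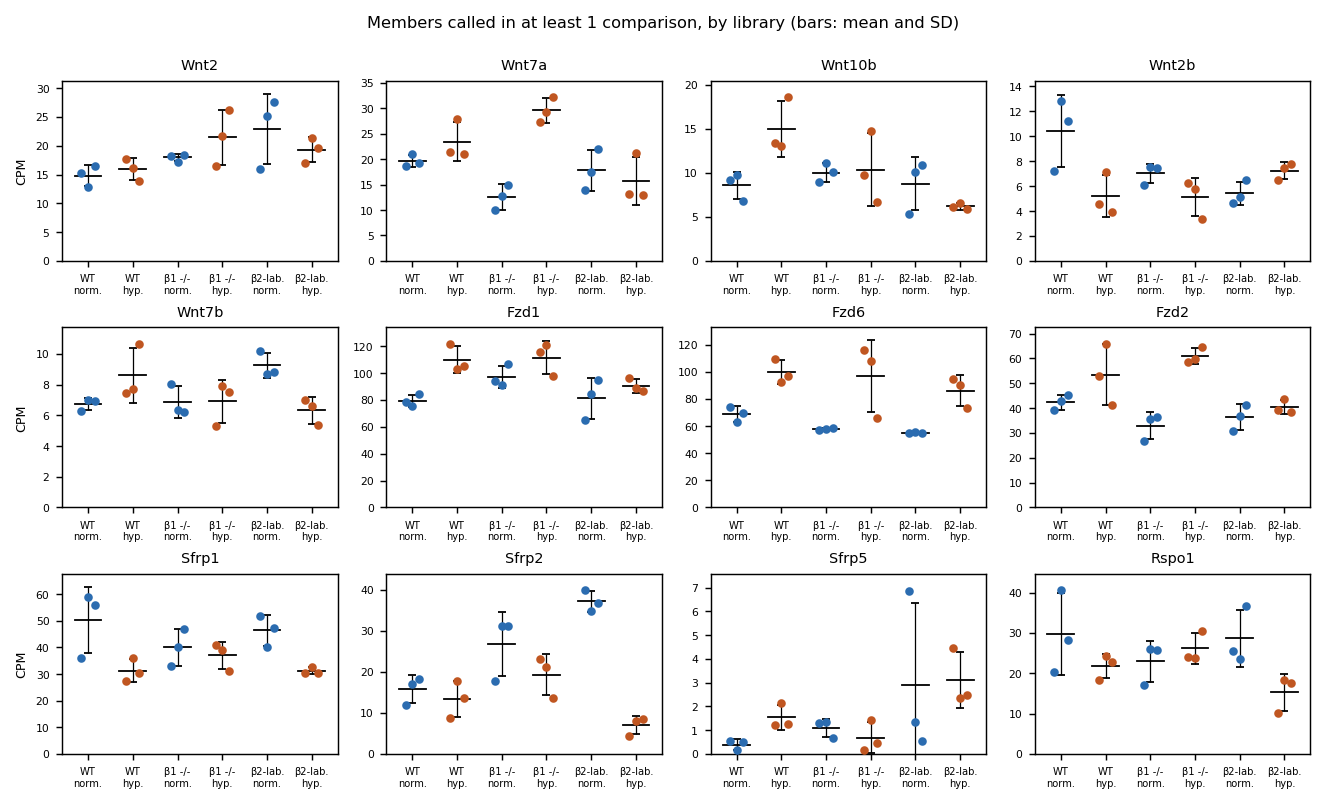
CPM in each library (points, replicates 0 to 2 from left to right; bars show mean and SD) of the 12 members called in at least 1 contrast, in 6 groups with normoxia in blue and hypoxia in orange. Sfrp2 drops from 34.7 to 39.9 CPM in labelled β-arrestin 2 -/- normoxia to 4.42 to 8.58 in hypoxia, Fzd6 is higher in hypoxia in each genotype, and 1 library of 6.87 CPM sets the mean of Sfrp5.

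The largest called response of any member was that of Sfrp2 (chromosome 3, 83766321 to 83774314), a secreted protein that binds Wnts and is made by fibroblasts. In the libraries labelled β-arrestin 2 -/- it fell from 39.9, 34.7 and 36.7 CPM in normoxia to 4.42, 8.12 and 8.58 in hypoxia. Each normoxic value was above that of all other libraries of the series, and each hypoxic value below that of all others. The log2 change was -2.40 ± 0.31 (adjusted p = 0.000213), and it passed under all 8 other settings and in all 6 fits without a library, with values of -2.56 to -2.15. In whole tissue, fewer cells of a type and less RNA per cell cannot be told apart.

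Wild type Sfrp2 stood at 11.9, 17.1 and 18.3 CPM in normoxia and 8.78, 17.7 and 13.7 in hypoxia, which overlap (-0.23 ± 0.29, adjusted p = 0.751). β-Arrestin 1 -/- lung had 17.6, 31.2 and 31.2 in normoxia and 23.1, 21.1 and 13.7 in hypoxia, which overlap too (-0.46 ± 0.29, adjusted p = 0.416). The response of the labelled β-arrestin 2 -/- libraries differed from that of wild type by -2.16 ± 0.42 (adjusted p = 0.0115), a call kept in all 12 fits without a library and under all 8 other settings. In normoxia alone their level was above wild type by 1.24 ± 0.29 (adjusted p = 0.0212), lost without wild type replicate 0 or 1 or labelled β-arrestin 2 -/- replicate 0 or 1 (adjusted p up to 0.0789). In hypoxia it was below wild type by -0.93 ± 0.30, which was not called (adjusted p = 0.184). Without labelled β-arrestin 2 -/- normoxia replicate 0 the fall in hypoxia was -2.33 (adjusted p = 0.0011) and the difference of responses -2.09 (adjusted p = 0.0274). An unlisted antisense gene, Gm26771, shares 347 exon bases with Sfrp2, and the kit does not keep strand.

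Sfrp1 (chromosome 8, 23411502 to 23449632), the more abundant relative, fell with hypoxia in wild type and in the labelled β-arrestin 2 -/- libraries. Wild type went from 36.1, 59.1 and 55.9 CPM to 27.5, 36.0 and 30.3, and the labelled β-arrestin 2 -/- libraries from 51.9, 40.3 and 47.2 to 30.5, 32.8 and 30.5. Neither pair of groups overlapped, though in wild type they nearly touched. The changes were -0.69 ± 0.18 (adjusted p = 0.0383) and -0.57 ± 0.18 (adjusted p = 0.0316). The first was lost without wild type normoxia replicate 1 or 2 or hypoxia replicate 0 or 2 (adjusted p up to 0.185), the second in every fit without a library but that without normoxia replicate 1 (adjusted p up to 0.120). Of 8 other settings, the first was lost under 4 and the second under 1. β-Arrestin 1 -/- lung had 33.1, 40.1 and 47.0 against 40.9, 39.0 and 31.3, a change of -0.11 ± 0.18 (adjusted p = 0.775), and the differences of responses from wild type, 0.58 ± 0.25 for β-arrestin 1 -/- (adjusted p = 0.807) and 0.12 ± 0.25 for the labelled β-arrestin 2 -/- libraries (adjusted p = 0.782), were not called.

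Sfrp5 (chromosome 19, 42197971 to 42202252), an antagonist known from adipose tissue, was called higher in labelled β-arrestin 2 -/- than in wild type normoxia, at 6.87, 1.35 and 0.52 CPM against 0.55, 0.14 and 0.49. The mean rested on replicate 0, the library with the high cardiac and airway markers. Adipocyte markers there also summed to 219 CPM against 52.2 and 43.3 in replicates 1 and 2, and smooth muscle markers to 3497 against 1816 and 1662. The part of any of these cells in the level of Sfrp5 was not tested. The log2 difference of 2.84 ± 0.84 (adjusted p = 0.0458) became 1.21 (adjusted p = 0.364) without replicate 0. It was lost as well without any one wild type normoxia library or without labelled β-arrestin 2 -/- replicate 1, and under 5 of 8 other settings. Sfrp4 was called in no contrast.

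R-spondins and Dickkopfs gave 1 call. Rspo1 (chromosome 4, 124986430 to 125009099) was by far the most abundant R-spondin. It fell in the labelled β-arrestin 2 -/- libraries from 25.6, 23.6 and 36.7 CPM to 10.01, 18.2 and 17.6, with no overlap, by -0.91 ± 0.27 (adjusted p = 0.0261). The call was lost without normoxia replicate 2 or hypoxia replicate 0 (adjusted p up to 0.119). Wild type had 20.3, 40.6 and 28.2 against 18.4, 24.2 and 22.7, a change of -0.45 ± 0.27 (adjusted p = 0.385), and the difference of responses, -0.46 ± 0.38, was not called (adjusted p = 0.442). Dkk3 had changes of 0.28 ± 0.13, 0.21 ± 0.13 and 0.14 ± 0.13 in wild type, β-arrestin 1 -/- and labelled β-arrestin 2 -/- lung, none of them called. In wild type its groups did not overlap, at 171 to 192 CPM in normoxia and 206 to 233 in hypoxia (unadjusted p = 0.0526, adjusted p = 0.265). Dkk2 was low, and its changes of -0.15 ± 0.43, -0.84 ± 0.39 and -1.07 ± 0.42 were not called either (adjusted p = 0.915, 0.267 and 0.0752).

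Markers of mesothelium, the cell layer on the lung surface, fell with hypoxia in the libraries labelled β-arrestin 2 -/-. Sfrp2, Sfrp1 and Rspo1 were also lower there. Of 9 markers 8 passed the filter, all but Muc16, and none of the 8 was at 0 in a group. Their summed level was 585 to 822 CPM in labelled β-arrestin 2 -/- normoxia and 249 to 348 in hypoxia, 451 to 980 and 405 to 525 in wild type, and 393 to 675 and 459 to 697 in β-arrestin 1 -/-. In wild type and β-arrestin 1 -/- the sums overlapped between exposures, though Sfrp1 was called lower with hypoxia in wild type. The normoxic sums of wild type and of the labelled β-arrestin 2 -/- libraries overlapped too, while Sfrp2 was called higher in the latter. Fibroblast markers overlapped between exposures in the labelled β-arrestin 2 -/- libraries, at 5579 to 7493 and 6075 to 6746 CPM. The summed pericyte list was higher in hypoxia in every genotype without overlap, as Fzd6 was, with 510 to 654 against 829 to 916 CPM in wild type. The part of these cells in the changes of the members was not tested.

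**Figure D4:**
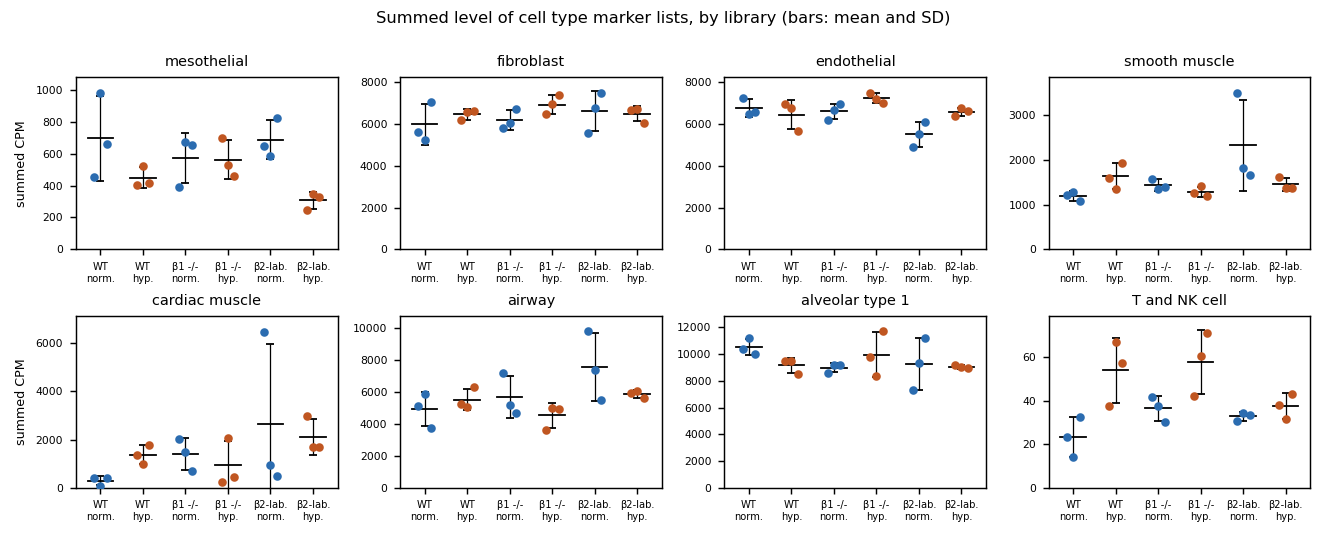
Summed CPM of 8 cell type marker lists in each library (points, replicates 0 to 2 from left to right; bars show mean and SD), normoxia in blue and hypoxia in orange. Mesothelial markers are lowest in labelled β-arrestin 2 -/- hypoxia, at 249 to 348 CPM, and 1 normoxic library of the same label stands out with 6448 CPM of cardiac muscle markers.

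Genotypes were also compared at each exposure. In normoxia, β-arrestin 1 -/- against wild type gave 0 of 32 members by edgeR, 0 by DESeq2 and 0 by limma. By edgeR 0.221% of all genes were called (0.0780% higher and 0.143% lower). Groups did not overlap for 12 members, beside 22.6% of genes. In hypoxia the same comparison gave 0 of 32 by edgeR and by limma and 1 by DESeq2. By edgeR 0.201% of all genes were called (0.0845% higher and 0.117% lower). There 1 member had groups that did not overlap, beside 9.79% of genes. The hypoxia responses of β-arrestin 1 -/- and wild type differed for 0 members by edgeR, DESeq2 or limma, beside 0.00% of all genes by edgeR. At an unadjusted p below 0.05 these contrasts held 8, 4 and 4 members, in the order given. The share of all genes at that unadjusted level is not given here, so these counts have no background to be read against. The libraries labelled β-arrestin 2 -/- differed from wild type in normoxia for 4 of 32 members (Sfrp2, Sfrp5 and Wnt2 higher, Wnt2b lower) (12.5%) beside 9.49% of all genes (4.00% higher and 5.49% lower), and in hypoxia for 1 (3.1%), Wnt10b, which was lower, beside 0.923% (0.344% higher and 0.578% lower). Groups did not overlap for 7 and 8 members, beside 44.1% and 17.5% of genes. Their hypoxia response differed from the wild type one for 3 members, Sfrp2, Wnt2b and Wnt7b, beside 6.05% of all genes (3.49% with a higher and 2.56% with a lower value).

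The rest of the pathway was followed in 5 lists of 69 genes, of which 66 were tested. Chronic hypoxia called 2 of them in wild type (Tcf7 higher, and Prickle2 lower by -0.64 ± 0.17, adjusted p = 0.0434) and 2 in β-arrestin 1 -/- (Vangl2 higher by 1.21 ± 0.28, adjusted p = 0.0272, and Daam2 lower by -0.61 ± 0.14, adjusted p = 0.0229), beside 4.76% and 2.95% of all genes. In the libraries labelled β-arrestin 2 -/- it called 14, 12 higher and 2 lower, which at 21.2% is near the 21.9% of all genes called there. All 4 calls outside those libraries were lost in some fit without a library.

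Feedback and target genes of β-catenin gave 6 calls with hypoxia in the labelled β-arrestin 2 -/- libraries, 4 of 12 higher and 2 lower. Of all genes 21.9% were called there (11.1% higher and 10.8% lower). The median of the list was 0.22 beside -0.04 over all genes, and neither difference was tested. Tcf7, a β-catenin partner that is also its target, rose from 14.1, 17.2 and 22.3 CPM to 51.7, 41.1 and 41.5. The groups were far apart, and the change was 1.32 ± 0.15 (adjusted p = 0.000107). Lef1, its relative, rose from 12.4, 13.9 and 14.8 to 24.0, 18.04 and 21.5 (0.63 ± 0.14, adjusted p = 0.00608), and Nkd1, a feedback inhibitor of Dishevelled, from 246, 242 and 295 to 356, 366 and 381 (0.49 ± 0.10, adjusted p = 0.00339). Axin2, the feedback scaffold most used as a readout of β-catenin and shown here after its values were seen, went from 37.2, 45.2 and 47.5 to 72.8, 78.2 and 69.2 (0.76 ± 0.19, adjusted p = 0.0102). Cd44, a surface glycoprotein, fell by 0.57 on the log2 scale, and Myc, also added after its values were seen, by 0.78, lost without normoxia replicate 0 or hypoxia replicate 1 (adjusted p up to 0.0582).

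Against wild type in normoxia the same list had 2 genes lower, Nkd1 and Tcf7, and 2 higher in the libraries labelled β-arrestin 2 -/-. Of all genes 9.49% were called in that contrast (4.00% higher and 5.49% lower). The 2 higher were Myc (0.74 ± 0.21, adjusted p = 0.0382), lost in all 6 fits without a library, and Cd44 (0.34 ± 0.10, adjusted p = 0.0433), lost in 5 of 6. Tcf7 had 27.7, 22.3 and 28.6 CPM in wild type normoxia and 42.2, 40.8 and 37.3 in hypoxia, a rise of 0.61 ± 0.15 (adjusted p = 0.0296) that was lost in 5 of 6 fits without a library. In β-arrestin 1 -/- it had 29.6, 27.4 and 32.8 in normoxia and 41.4, 42.6 and 37.7 in hypoxia, without overlap but not called. The difference of its response from wild type was called for neither of the other genotypes. Tcf7 is also a T cell gene, and all 7 genes of the T and NK cell list passed the filter, none at 0 in a group. That list summed to 14.3 to 32.7 CPM in wild type normoxia and 37.8 to 67.2 in hypoxia, with no overlap. It summed to 30.3 to 41.8 and 42.1 to 71.0 in β-arrestin 1 -/-, also with no overlap. In the libraries labelled β-arrestin 2 -/- it summed to 30.7 to 34.6 and 31.6 to 43.3, which overlap. The part of these cells in the change of Tcf7 was not tested. Axin2 had 69.3, 56.7 and 66.4 in wild type normoxia and 86.0, 55.2 and 46.1 in hypoxia, which overlap. Lef1 had 16.8, 11.6 and 13.4 in wild type normoxia and 17.6, 19.5 and 17.4 in hypoxia, without overlap but not called. Nkd1 had 372, 365 and 361 in wild type normoxia and 309, 285 and 296 in hypoxia, the reverse order of the labelled β-arrestin 2 -/- libraries. In normoxia the labelled β-arrestin 2 -/- libraries differed from wild type by -0.55 ± 0.15 in Tcf7 (adjusted p = 0.0357) and by -0.49 ± 0.10 in Nkd1 (adjusted p = 0.0105), while Axin2 was not called (-0.57 ± 0.19, adjusted p = 0.0614) and Lef1 overlapped. The Tcf7 difference was lost without wild type normoxia replicate 0 or 2 or labelled β-arrestin 2 -/- replicate 0 or 1 (adjusted p up to 0.154), being -0.41 without that replicate 0, and that of Nkd1 passed in all 6 fits. The comparison with wild type in normoxia and the hypoxia response share the normoxic libraries, so the normoxic level enters both.

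The co-receptor Lrp5 had 310, 326 and 337 CPM in wild type normoxia and 165, 179 and 219 in the normoxic libraries labelled β-arrestin 2 -/-, with no overlap (-0.79 ± 0.15, adjusted p = 0.00676). In hypoxia the latter had 296, 329 and 321, a rise of 0.75 ± 0.15 (adjusted p = 0.0030), while wild type had 315, 256 and 254. The 2 responses differed by 0.98 ± 0.21 (adjusted p = 0.0160), and all 3 calls passed in every fit without a library and under all 8 other settings. The 10 endothelial markers, all tested and none at 0 in a group, were followed as a sum. In labelled β-arrestin 2 -/- normoxia the sum was 4886, 5494 and 6104 CPM. That was below their hypoxia (6364, 6732 and 6586) and below wild type normoxia (7251, 6474 and 6571) with no overlap. In β-arrestin 1 -/- the sum was 6188 to 6926 in normoxia and 6984 to 7470 in hypoxia, with no overlap. Lrp5 there had 243, 285 and 292.5 against 287, 234 and 182, which overlap. The part of endothelial cells in the changes of Lrp5, Tcf7, Nkd1 and Axin2 was not tested. The difference of responses was called higher in 5 of the 66 genes and lower in 1, beside 6.05% of all genes (3.49% higher and 2.56% lower), with Nkd1 at 0.80 ± 0.14 (adjusted p = 0.00703) also kept in all 12 fits without a library. The rest were Ryk, a Wnt receptor outside the Frizzleds (0.39 ± 0.11), Celsr2 (0.70 ± 0.17) and Daam1 (0.56 ± 0.16) of the planar polarity branch, and Cd44 (-0.53 ± 0.14), each lost in at least 5 such fits.

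Other modulators were called in the same libraries. Apcdd1, a membrane inhibitor of Wnt signalling, rose by 0.78 ± 0.19 (adjusted p = 0.00935) and Kremen1, a Dickkopf receptor, by 0.40 ± 0.08 (adjusted p = 0.00237) with hypoxia. Vangl1 and Celsr2 of the planar polarity branch rose by 0.65 ± 0.13 (adjusted p = 0.0029) and 0.56 ± 0.12 (adjusted p = 0.00475). Inside the cell, Dvl2, a Dishevelled, rose by 0.44 ± 0.10 (adjusted p = 0.00708), and Pygo1 and Bcl9l, which join β-catenin to chromatin, by 0.58 ± 0.18 and 0.61 ± 0.21, the last 2 lost in 5 of 6 fits without a library. Wild type was also higher in hypoxia without overlap for Vangl1 (23.6 to 25.9 against 33.1 to 34.2 CPM) and Dvl2 (23.0 to 25.1 against 28.1 to 29.4). Neither was called there, nor was its difference of responses. The wild type groups overlapped for Apcdd1, Kremen1, Celsr2, Pygo1 and Bcl9l. In normoxia the labelled β-arrestin 2 -/- libraries had 4 of 66 genes higher and 8 lower than wild type, beside 9.49% of all genes (4.00% higher and 5.49% lower). Kremen2 was at 0.10, 0.13 and 0 CPM against 1.15, 0.96 and 0.53. In hypoxia it had 0.17, 0.39 and 0.13 against 0.52, 1.31 and 0.99 in wild type, without overlap but not called. It was near the floor, with 0 to 10 fragments in each labelled β-arrestin 2 -/- library. Daam2 was lower in normoxia by -0.71 ± 0.14 (adjusted p = 0.00771). Sost, the antagonist sclerostin, was at 11.5, 1.31 and 1.01 CPM against 0.46, 0.19 and 0.35, its difference of 3.73 ± 0.91 (adjusted p = 0.0231) being lost without any one wild type library or without replicate 0, where it was 1.76 (adjusted p = 0.181).

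**Figure D5:**
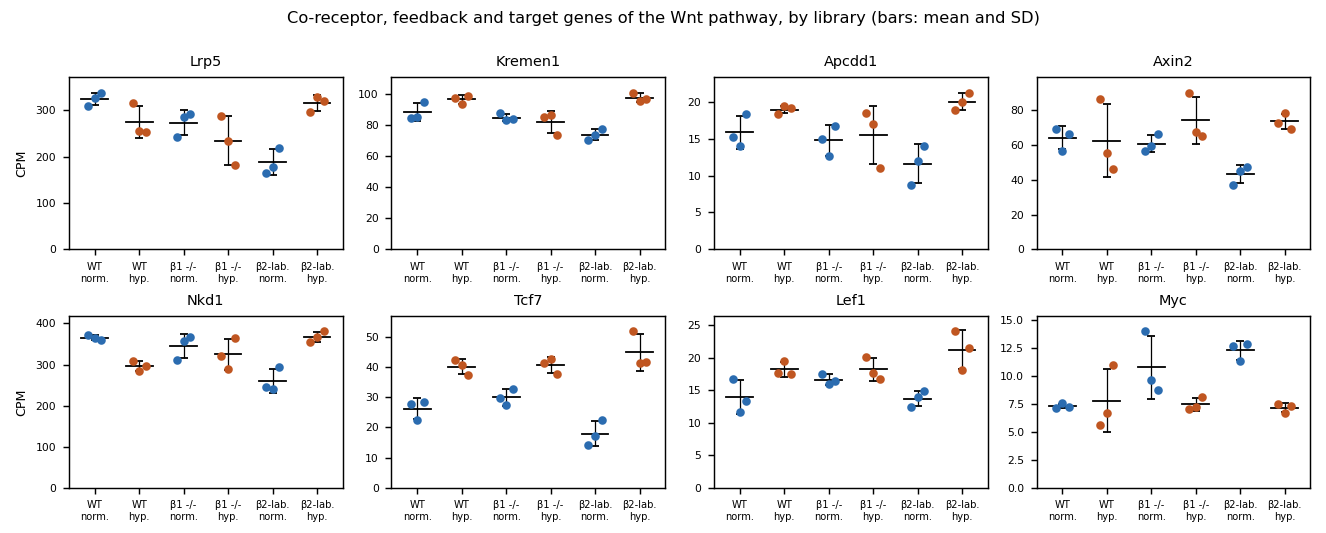
CPM in each library (points, replicates 0 to 2 from left to right; bars show mean and SD) of a co-receptor, modulators, feedback genes and targets of the Wnt pathway, normoxia in blue and hypoxia in orange. Lrp5 lies at 165 to 219 CPM in labelled β-arrestin 2 -/- normoxia and at 296 to 329 in hypoxia, and Tcf7, Axin2 and Nkd1 are also lower in that normoxic group than in its hypoxic one.

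The authors' deposited table of Cuffdiff comparisons, called at a q-value below 0.05, held 31 calls on members, 15 of them among the 16 made here by edgeR within an exposure or genotype and 16 made only there. Wnt7b in the libraries labelled β-arrestin 2 -/- was not called in the authors' deposited table (q-value 0.155). For wild type hypoxia the authors' deposited table also called Fzd6 (q-value 0.0126), Wnt10b (0.00322), Sfrp4 (0.0382) and Sfrp5 (0.0041) higher. Between β-arrestin 1 -/- and wild type, where edgeR called 0 members, the authors' deposited table called 5 in normoxia and 2 in hypoxia. In normoxia these were Wnt4 (q-value 0.00864), Sfrp2 (0.00124) and Sfrp5 (0.0316) higher and Wnt7a (0.0107) and Fzd4 (0.0343) lower, and in hypoxia Wnt4 (0.00124) higher and Fzd4 (0.0216) lower. For the libraries labelled β-arrestin 2 -/- the authors' deposited table called Fzd4 higher with hypoxia and lower than wild type in normoxia (q-value 0.00124 in each). Against wild type in hypoxia, Sfrp2 (q-value 0.00322) and Wnt7a (0.0308) were called lower and Sfrp5 (0.0236) higher in the authors' deposited table.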

How the data were processed

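Members, gene lists and tests were chosen with earlier results of these data known. Libraries were made from 1 µg of poly(A)-enriched RNA of about 30 mg of frozen lung with an unstranded kit, as the labels' protocols give it. The submitters' processing notes name FastQC, TopHat, Cuffdiff and mm10; versions and annotation: not given in the sources used here. For each library the authors deposited estimated counts (fragments assigned to a gene, without normalization, 93.3% of values whole) and FPKM values from Cuffdiff, with replicates kept apart. They also deposited Cuffdiff comparisons, from which p-values, q-values and the direction of the test score were read. The 5 features marked HIDATA were left out.

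After rounding of the estimated counts, edgeR 4.0.16 (R 4.3.3) was run with TMM scaling and quasi-likelihood F-tests in 1 fit of 18 libraries. The filter filterByExpr kept 15388 genes, p-values were adjusted by Benjamini-Hochberg over all of them, and 9 contrasts were tested at a threshold of 0.05. Adjusted p-values come from edgeR where no other tool is given, and log2 changes are given with SE. FPKM served to compare genes and as the input of the limma alternatives. Tried as alternatives were each library left out in turn, a block for the replicate number, a fit of the compared groups alone, edgeR unfiltered or with the size factors of DESeq2, DESeq2 1.42.0 itself, and limma 3.58.1 on log2(FPKM + 1) or log2(FPKM + 0.1), requiring 1 FPKM in 3 libraries or unfiltered. For pathway genes outside the family they were added after seeing the data, as was the value of an uncalled member without a library that stood apart. The fit was run on counts simulated from its own estimates of spread. No outlying library was simulated, so that run cannot speak to the libraries that stood apart. Named were the members called in at least 1 contrast, the ends of each family by level, and of each pathway list up to 4 called genes of smallest p per contrast. Replicate numbers 0 to 2 recur in every group. The deviations of same-numbered libraries correlated from -0.53 to 0.57, so the numbers were not taken to pair samples. Promoters are from RefSeq (GRCm38.p6). Figures were drawn with matplotlib 3.10.9.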

Additional observations from a re-analysis of the deposited data

Results flagged for a closer look

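The hypoxia response of the libraries labelled β-arrestin 2 -/- differed from that of wild type, by an interaction term of edgeR's fit, for 3 members. For Sfrp2 the difference was -2.16 on the log2 scale (adjusted p = 0.0115), with the 3 hypoxic libraries all below the 3 normoxic ones in the labelled β-arrestin 2 -/- libraries and overlapping groups in wild type. For Wnt2b it was 1.41 (adjusted p = 0.0376), with wild type lower in hypoxia without overlap. For Wnt7b it was -0.90 (adjusted p = 0.0499), with the labelled β-arrestin 2 -/- libraries lower in hypoxia without overlap. The differences rest on the same 12 libraries, and 6.05% of all genes were called in this contrast. With each of these libraries left out in turn, the Sfrp2 call was kept in all 12 fits. The Wnt2b call was lost in 8 of them and the Wnt7b call in 11.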

How the results depend on the processing

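No called member or pathway gene changed sign under any setting. Of the 19 calls on members, 5 passed in every fit without a library and 3 under every setting run; 14 were lost without at least 1 library. Leaving out 1 library at a time gave 0 to 2 members called in wild type hypoxia, 2 to 3 in β-arrestin 1 -/- hypoxia, 2 to 4 in labelled β-arrestin 2 -/- hypoxia, 0 to 4 and 0 to 1 between the labelled β-arrestin 2 -/- libraries and wild type in normoxia and hypoxia, 1 to 4 for their difference of responses, and 0 in the 3 contrasts of β-arrestin 1 -/- with wild type. Over all genes, these ranges were 209 to 943, 133 to 491 and 1710 to 3107 for hypoxia in the 3 genotypes (733, 454 and 3370 with all libraries). They were 15 to 30 and 20 to 34 for β-arrestin 1 -/- against wild type in normoxia and hypoxia (34 and 31 with all libraries), 316 to 1922 and 52 to 298 for the labelled β-arrestin 2 -/- libraries (1460 and 142), and 313 to 2022 for their difference of responses (931).

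DESeq2 called 1280 and 841 genes for hypoxia in wild type and β-arrestin 1 -/-, 176 and 155 for β-arrestin 1 -/- against wild type in normoxia and hypoxia, 2753 and 481 for the labelled β-arrestin 2 -/- libraries, and 9 and 1880 for the 2 differences of responses. Among members it called 1 for β-arrestin 1 -/- against wild type in hypoxia and 5 for the labelled β-arrestin 2 -/- difference of responses. A fit of only the groups compared called 47 genes and 0 members in β-arrestin 1 -/- hypoxia, 109 and 12 genes for β-arrestin 1 -/- against wild type, 2638 and 84 for the labelled β-arrestin 2 -/- libraries, and 1 and 1540 for the differences of responses, with 6 members in the last. Limma on log2(FPKM + 1) called 1 member in wild type hypoxia, and 0 with log2(FPKM + 0.1) or without a filter. In all 3 limma fits 2 members were called for labelled β-arrestin 2 -/- against wild type in normoxia and 0 in hypoxia. Without a filter limma called 3 members in labelled β-arrestin 2 -/- hypoxia, 1 member for their difference of responses, and 2 genes for the β-arrestin 1 -/- difference. Other counts of all genes by limma are not given here, so its member counts have no background to be read against. The causes were not tested.

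With the replicate number as a block, 2 members instead of 4 were called for labelled β-arrestin 2 -/- against wild type in normoxia, Sfrp5 and Wnt2 being lost. The block also lost Fzd1 in wild type hypoxia (3 to 2 members), and Wnt7b in labelled β-arrestin 2 -/- hypoxia (5 to 4) and in their difference of responses (3 to 2). The counts for all genes stayed within 1.5 times. Of the 18 libraries 8 correlated best with one of their own number, a hint from the data and not the design. Depth limits the 9 members under the filter, whose changes were not detectable.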
